A study of Homo sapiens with 8 samples.

Results

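Methylation of 10 genes of the death receptor and caspase-8 pathway was read from the MBD-seq peak lists of 8 neuroblastoma (NB) cell lines. The genes were taken from a fixed list of names, *TNFRSF10A*, *TNFRSF10B*, *TNFRSF10C*, *TNFRSF10D*, *FAS*, *FADD*, *CASP8*, *CASP10*, *CFLAR* and *APAF1*, and all 10 were found among the 64486 genes of the annotation. The rule uses their names and no methylation value, but the list was drawn up with earlier results of these data known. MBD-seq pulls methylated fragments out of sheared DNA with the methyl-CpG-binding domain of MBD2 and sequences them, so that methylated regions appear as peaks of reads. Every line was sequenced once. By their labels N206, LAN-2, IMR-32 and CHP-902R have an amplified *MYCN* oncogene (MNA), whereas in SK-N-AS, SJNB-1, SH-SY5Y and CLB-GA *MYCN* is not amplified (*MYCN* single copy). All are established cultures of tumor cells, and the labels give no treatment, gene deletion or transgene for any of them. Peak lists of DNA hold no expression markers, so the identity of the lines could not be checked. LAN-2 is written LA-N-2 in its label, and SH-SY5Y is a subclone of another NB line. The 4 lines with the same *MYCN* status were treated as replicates of it, so the spread within a group is the spread between lines of different tumors, not between repeats of 1 line.

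Death receptors are cell surface proteins of the TNF receptor superfamily that carry a death domain on their inner side. When the ligand TRAIL binds DR4 (*TNFRSF10A*) or DR5 (*TNFRSF10B*), or FASLG binds FAS, the adaptor FADD is recruited and brings caspase-8 and caspase-10 together, which activates them. CFLAR (c-FLIP) resembles caspase-8 without its enzyme activity and holds this step back, and the decoy receptors DcR1 (*TNFRSF10C*) and DcR2 (*TNFRSF10D*) bind TRAIL without passing on a full death signal. APAF1 is the scaffold of the apoptosome, through which cytochrome c released from mitochondria activates caspase-9. Loss of caspase-8 and promoter methylation of death receptor genes are long known in NB.

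A promoter peak is here a peak that overlaps, by at least 1 bp, a window that starts 1500 bp before and ends 1000 bp after an annotated transcriptional start site (TSS) of a gene, and a gene body peak one that overlaps the gene from its first to its last annotated base. The reference TSS is that of the canonical transcript. At least 1 line had a promoter peak at 9 of the 10 genes, where the share over all protein-coding genes was 73.9%. *FADD* had none in any line. *CFLAR* had a promoter peak in all 8 lines, *CASP8* and *APAF1* in 7, *TNFRSF10A* and *TNFRSF10D* in 5, *TNFRSF10B* and *TNFRSF10C* in 4, *FAS* in 3 and *CASP10* in 2. Every one of the 10 genes had a gene body peak in at least 4 lines, as had 71.9% of the 20176 protein-coding genes, and the median was 7 lines for the 10 genes and 6 for coding genes. Counting each gene in each line by its class of peak nearest to the reference TSS, 21 pairs of gene and line had a peak within 500 bp of it, 24 had a promoter peak only farther away or at another TSS, 21 had gene body peaks alone, and 14 had no peak.

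**Figure D1:**
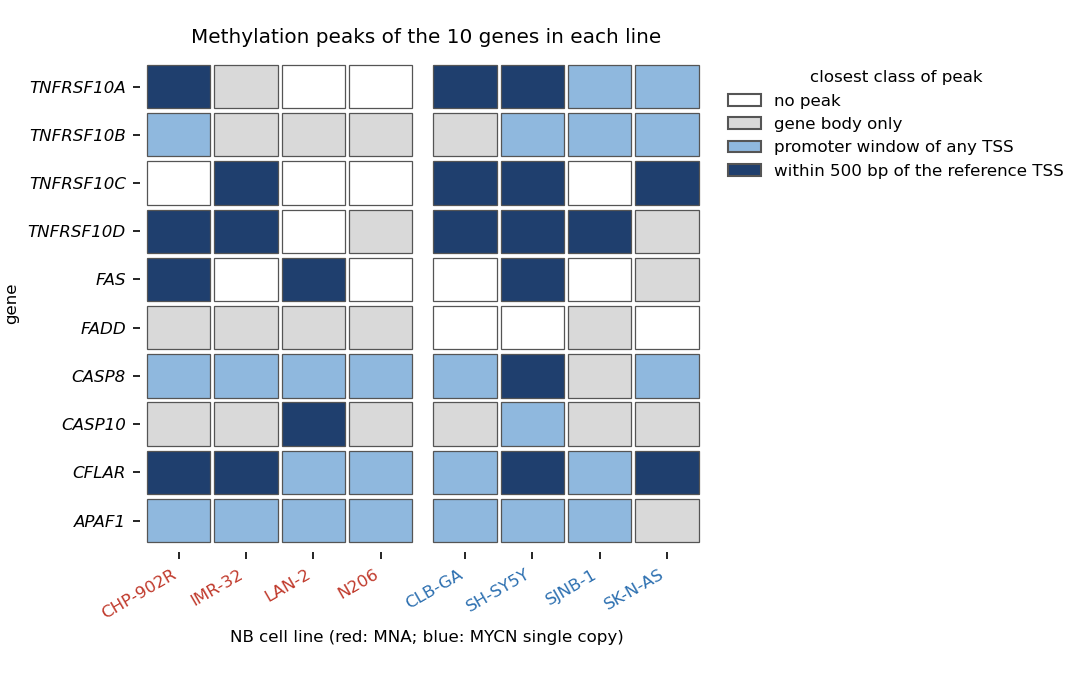
Class of methylation peak found for each of the 10 genes (rows) in each of the 8 NB lines (columns, MNA on the left and *MYCN* single copy on the right), from no peak (white) to a peak within 500 bp of the reference TSS (dark blue). SH-SY5Y has 6 dark squares and N206 has 0, and *FADD* has gene body peaks only.

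The promoter peaks were spread unevenly over the lines. SH-SY5Y had a promoter peak at 9 of the 10 genes, CHP-902R at 7, CLB-GA at 6, IMR-32, LAN-2, SJNB-1 and SK-N-AS at 5 each and N206 at 3. The MNA lines had 5 ± 1.63 such genes and the single copy lines 6.25 ± 1.89 (SD, n = 4 each), so the groups overlapped. Among all coding genes, the share with a promoter peak ran from 33.2% in SJNB-1 to 40.9% in IMR-32, and SH-SY5Y (38.4%) and N206 (36.1%) lay between these. The order of the lines for the 10 genes was therefore not that of their share over all coding genes. Within 500 bp of the reference TSS, a window chosen after seeing the data, 6 of the 10 genes had a peak in SH-SY5Y, 4 in CHP-902R, 3 each in IMR-32 and CLB-GA, 2 each in LAN-2 and SK-N-AS, 1 in SJNB-1 and 0 in N206, against 6.28% (N206) to 11.4% (IMR-32) of coding genes.

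**Figure D2:**
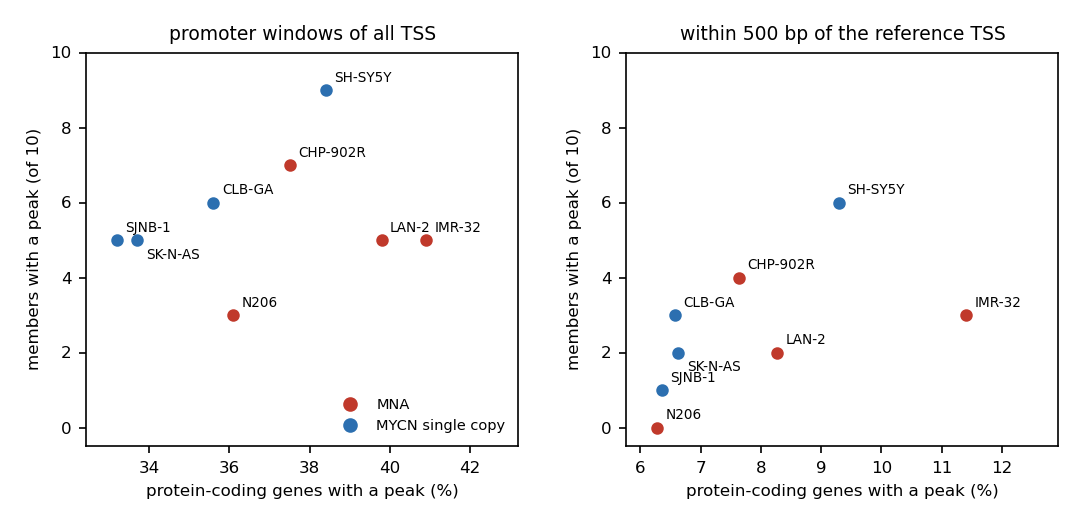
Number of the 10 genes with a peak (vertical axis) against the percentage of protein-coding genes with one (horizontal axis), 1 point a line, for the promoter windows of all TSS (left) and for the window within 500 bp of the reference TSS (right). SH-SY5Y is highest in both panels with 9 and 6 genes, and N206 is lowest with 3 and 0.

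The 10 genes had a promoter peak in a median of 4.5 lines, against 2 lines for all coding genes, and 7 of the 10 had one in at least 4 lines, against 39.5% of coding genes. They also had more annotated TSS (median 8.5, against 5), which gives them more windows, and they were chosen as described above, so these shares are descriptions without a test. With the reference TSS alone and the window of 500 bp on each side, 5 of the 10 genes had a peak in at least 3 lines, against 8.90% of coding genes, and 3 had one in at least 4 lines, against 5.81%. Of the 222 peaks on the 10 genes, 21 lay within 500 bp of the reference TSS and 201 elsewhere. The 21 had a median of 6.23 CpG per 100 bp, near the 6.59 of all coding promoters within 500 bp of the TSS, and the 201 had 2.57, near the 2.66 of all 711243 peaks of the 8 lists. As no read counts are in the lists, the depth behind each is unknown, no interval can be given for a peak, and the absence of a peak means only that none was called.

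*FAS*, the receptor of FASLG, lies on chromosome 10 (90750414 to 90775542, plus strand, GRCh37). It had a promoter peak over its reference TSS in 3 lines, the MNA lines CHP-902R and LAN-2 and the single copy line SH-SY5Y. The peak of CHP-902R ran from 301 bp upstream to 77 bp downstream of the TSS, that of LAN-2 from 331 bp upstream to 512 bp downstream, and that of SH-SY5Y from 343 bp upstream to 196 bp downstream. Their scores, ranked within each list, were above those of 40.3%, 92.3% and 85.3% of the peaks of their lists. In the other 5 lines the nearest peak lay 4878 bp (SK-N-AS), 27012 bp (CLB-GA), 27027 bp (IMR-32), 27275 bp (N206) and 63769 bp (SJNB-1) from the TSS. The promoter was thus either covered across the TSS or free of any called peak for several kb, and both states occurred in both *MYCN* groups (2 MNA lines and 1 single copy line, p = 1 in the two-sided Fisher's exact test). Beside this, SJNB-1 had 15 peaks in total within 1 Mb of *FAS*, the fewest, and the other lines had 29 to 61. The same 3 peaks lie in a promoter window of *ACTA2*, a smooth muscle actin gene whose body overlaps *FAS* on the annotation, so the 2 genes cannot be told apart there. Within 500 bp of the *FAS* TSS, every window of 45 bp, the length of a sequenced read, occurs once in GRCh37.

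The stretch just upstream of the *FAS* TSS that the 3 peaks share is printed because it is the only promoter region of *FAS* with a called peak. Elsewhere in the gene, peaks were called in intron 1 alone, at 2 places, in CHP-902R and SK-N-AS and in SH-SY5Y. It is chr10:90750114-90750413, plus strand, of the GRCh37 reference, the last 300 bases before the TSS, with CpG in capitals (15 CpG, 5 per 100 bp).
FAS: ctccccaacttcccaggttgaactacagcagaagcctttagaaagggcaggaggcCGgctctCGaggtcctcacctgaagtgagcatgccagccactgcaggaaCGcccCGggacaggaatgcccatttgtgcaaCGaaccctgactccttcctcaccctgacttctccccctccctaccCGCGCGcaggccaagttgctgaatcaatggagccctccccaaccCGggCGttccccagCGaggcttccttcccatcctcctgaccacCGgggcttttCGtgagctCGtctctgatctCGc

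The 4 TRAIL receptor genes lie side by side on chromosome 8 within 204970 bp, *TNFRSF10B* (22877646 to 22926544, minus strand), *TNFRSF10C* (22960434 to 22974958, plus strand), *TNFRSF10D* (22993101 to 23021540, minus strand) and *TNFRSF10A* (23047965 to 23082615, minus strand). *TNFRSF10A* encodes DR4, a receptor that passes the death signal on. Its 5′ end carried a peak in CHP-902R, from 583 bp upstream to 294 bp downstream of the reference TSS, and in SH-SY5Y, from 989 bp upstream to 45 bp downstream. In CLB-GA the peak ended 477 bp and in SJNB-1 534 bp upstream of the TSS. The promoter peak of SK-N-AS lay elsewhere, in intron 8, 27563 bp downstream, at an alternative TSS. IMR-32, LAN-2 and N206 had no promoter peak of this gene. All 4 single copy lines and 1 of 4 MNA lines thus had one (difference of -75 percentage points, MNA minus single copy; two-sided Fisher's exact test, p = 0.143; p = 1 after Benjamini-Hochberg adjustment). CHP-902R decides this value: without it the difference was -100 percentage points (p = 0.0286 in the same exact test, a p under 0.05 that 0.857% of 34439 genes also had without this line), whereas with the reference TSS alone 3 single copy lines and 1 MNA line had a peak. The 4 peaks at the 5′ end also lie in a promoter window of *TNFRSF10A-DT*, a divergent transcript.

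*TNFRSF10B*, which encodes DR5, had no peak within 500 bp of its reference TSS in any line. Of all coding genes, 25.5% had such a peak in at least 1 line. This window of *TNFRSF10B* holds 8.09 CpG per 100 bp, more than 65.2% of coding promoters. The nearest peaks lay 729 bp upstream in CHP-902R, 1421 bp upstream in SJNB-1, and 1578 and 1628 bp away in N206 and SK-N-AS. The latter 2 fell outside the window. SH-SY5Y and SK-N-AS counted as having a promoter peak through peaks of 393 and 283 bp near alternative TSS within the gene, 39197 and 36815 bp downstream. Promoter peaks were thus found in 1 MNA line against 3 single copy ones (p = 0.486 in Fisher's exact test, two-sided). The windows were overlapped by 27 bp in SH-SY5Y and 80 bp in SJNB-1, and the count was 1 line in each group when the midpoint of a peak had to lie in the window or the reference TSS alone was used. All 8 lines had gene body peaks in *TNFRSF10B*, most of them in introns 1 and 2.

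*TNFRSF10C* encodes the decoy receptor DcR1, which is anchored in the membrane and has no death domain. It had 1 merged region of peaks in all, over its TSS, in IMR-32, CLB-GA, SH-SY5Y and SK-N-AS. The peaks ran from 151 to 360 bp upstream to 314 to 588 bp downstream, covering exon 1. That of CLB-GA scored above 99.6% of the peaks of its list and that of SK-N-AS above only 0.737%, so the second was close to the lowest score of 50 that the lists hold. CHP-902R, LAN-2, N206 and SJNB-1 had no peak anywhere in the gene. The peak was called in 1 MNA line and 3 single copy lines, with p = 0.486 in the same exact test.

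*TNFRSF10D*, which encodes the decoy receptor DcR2 with its shortened death domain, had a peak at its only annotated TSS in 5 lines, CHP-902R, IMR-32, CLB-GA, SH-SY5Y and SJNB-1. The peaks of CHP-902R, CLB-GA and SH-SY5Y were long, 1235, 1455 and 1426 bp, and scored above 91.8%, 94.4% and 94.4% of the peaks of their lists. The peak of SJNB-1 was 799 bp long and that of IMR-32 338 bp, ending 18 bp upstream of the TSS. LAN-2, N206 and SK-N-AS had none there. The 5 lines were 2 MNA and 3 single copy lines, and the exact test gave p = 1. Of the 45 bp windows within 500 bp of the TSS, 80.6% occur once in GRCh37 for *TNFRSF10D* and 81.1% for *TNFRSF10C*. These are the lowest shares among the 10 genes, so single reads from these related genes can be harder to place. The reads were sequenced in pairs, which these windows do not take into account.

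Across the cluster, the lines differed in which receptors carried a peak in the window of the reference TSS. CHP-902R and SJNB-1 had one at *TNFRSF10A*, *TNFRSF10B* and *TNFRSF10D*. CLB-GA and SH-SY5Y had one at *TNFRSF10A*, *TNFRSF10C* and *TNFRSF10D*, IMR-32 at *TNFRSF10C* and *TNFRSF10D*, and SK-N-AS at *TNFRSF10C* alone. LAN-2 and N206 had none at any of the 4 genes. LAN-2 had 2 peaks in the whole cluster, against 10 to 15 in the other lines, although it had 115 peaks within 1 Mb of it, where the lines ranged from 76 to 116. N206 had 12 peaks in the cluster, all away from these TSS. The number of copies of each locus in each line was not analysed here, and its part in the calling of peaks was not tested.

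**Figure D3:**
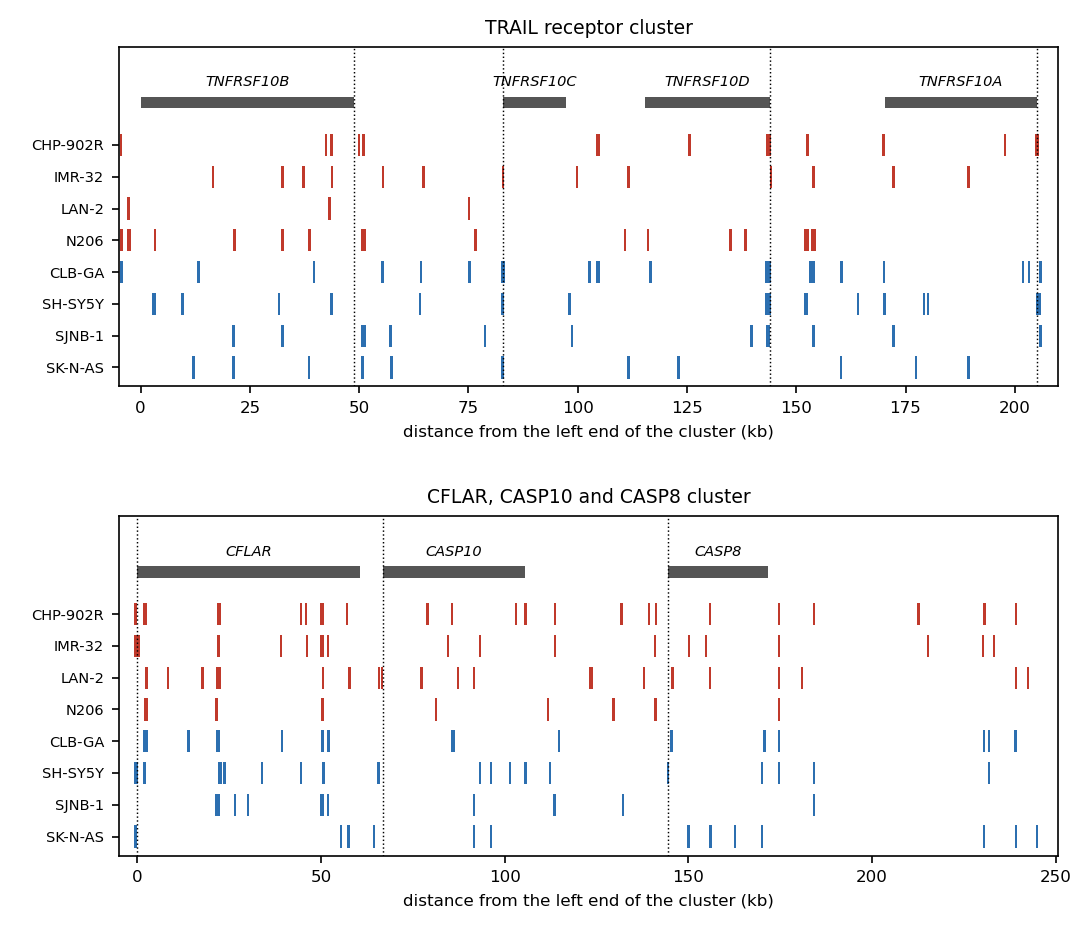
Peaks of each line (rows; red for MNA, blue for *MYCN* single copy) along the TRAIL receptor cluster (top) and the *CFLAR*, *CASP10* and *CASP8* cluster (bottom), in kb from the left end of each. Grey bars are the reference transcripts, dotted lines their TSS, and peaks under 0.6 kb are drawn 0.6 kb wide. Between the outer ends of the TRAIL receptor genes LAN-2 has 2 peaks and the other lines have 10 to 15; marks left of 0 or past the last gene lie outside.

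*FADD* encodes the adaptor that joins the activated receptors to caspase-8 and caspase-10. It lies on chromosome 11 (70049402 to 70053496, plus strand) with 1 annotated TSS and 2 exons. No line had a promoter peak of *FADD*, a state found for 5272 of 20176 coding genes. The sequence within 500 bp of the TSS is rich in CpG (9.89 per 100 bp, more than 80.5% of coding promoters). All of its 45 bp windows occur once in GRCh37. Whether either bears on the missing peak was not tested. Peaks lay inside the gene instead, from 1421 to 3527 bp downstream of the TSS, in intron 1 and exon 2. All 4 MNA lines had such peaks, and SJNB-1 was the only single copy line with one. The length covered was 366 bp in CHP-902R, 1082 bp in IMR-32, 1978 bp in LAN-2 and 935 bp in N206, against 533 bp in SJNB-1 and 0 bp in CLB-GA, SH-SY5Y and SK-N-AS. The groups overlapped through CHP-902R, which had less than SJNB-1. The MNA lines had 1090.25 ± 667.5 bp and the single copy lines 133.25 ± 266.5 bp (SD, n = 4 each), a difference of 957 bp (exact permutation test, two-sided, p = 0.0571, and p = 1 after Benjamini-Hochberg adjustment). Without CHP-902R the difference was 1198 bp and the exact permutation p = 0.0286, the smallest value this design allows; a p under 0.05 was found for 3.13% of 36291 genes without this line. With all lists shortened to equal length the difference was 462.5 bp (exact permutation p = 0.257), and no *FADD* peak had a score of at least 100. LAN-2, which had the longest cover, had 44 peaks within 1 Mb of *FADD*, the fewest of the 8 lines, where IMR-32 had 146 and CLB-GA, with no *FADD* peak, had 133.

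The stretch of *FADD* intron 1 below is the middle of what the peaks of IMR-32, LAN-2 and N206 share, and it is printed because it lay in peaks of 3 MNA lines and of no single copy line. It is chr11:70051215-70051514, plus strand, of GRCh37, 1813 to 2112 bp downstream of the TSS, with CpG in capitals (5 CpG, 1.67 per 100 bp).
FADD: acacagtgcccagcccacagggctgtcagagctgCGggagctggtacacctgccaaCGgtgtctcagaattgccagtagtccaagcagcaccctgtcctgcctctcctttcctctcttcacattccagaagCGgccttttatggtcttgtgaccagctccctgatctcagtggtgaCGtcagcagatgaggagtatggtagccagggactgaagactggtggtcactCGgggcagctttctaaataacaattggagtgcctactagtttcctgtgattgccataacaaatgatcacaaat

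*CASP8*, *CASP10* and *CFLAR* lie next to each other on chromosome 2. *CASP8* encodes the initiator caspase of the pathway and extends, with all its annotated transcripts, from 202098166 to 202226559 on the plus strand. Its reference transcript runs from 202125259 to 202152432, and 22 TSS are annotated for it. A promoter peak was found in 7 lines, all but SJNB-1 (all 4 MNA lines and 3 single copy lines, exact p = 1), but not at the same place. In CHP-902R, IMR-32 and N206 the peak lay upstream of the reference TSS, between 2852 and 3751 bp, and 296 to 775 bp from the nearest annotated TSS. In LAN-2 and CLB-GA it lay in intron 1, from 980 to 1279 bp and from 631 to 1346 bp downstream. SH-SY5Y was the only line with a peak across the reference TSS, from 194 bp upstream to 203 bp downstream. SK-N-AS and IMR-32 had a peak 5352 to 5815 bp downstream, near another TSS within intron 1. The upstream region thus had a peak in 3 MNA lines and in 0 single copy lines, a count that was singled out after the values were seen and is given without a test. Of the 45 bp windows of this region 72.2% occur once in GRCh37, so part of it is repeated elsewhere.

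The sequence around the reference TSS of *CASP8* is poor in CpG (14 CpG in 1001 bp, a density above that of only 14.2% of coding promoters), and MBD capture needs methylated CpG. Whether the CpG density bears on the peaks called there was not tested. None of the *CASP8* promoter peaks reached a score of 100. All 8 lines had peaks in the gene body as annotated, covering 3499.5 ± 1289.9 bp in the MNA lines and 2241.75 ± 858 bp in the single copy lines (SD, n = 4 each; difference of 1257.75 bp, two-sided exact permutation test, p = 0.171). With all lists shortened to equal length this difference was 313.5 bp (exact permutation p = 0.743). The region shared by most lines, 202155187 to 202155845, had peaks in all 4 MNA lines and in CLB-GA and SH-SY5Y. It lies beyond the end of the reference transcript and within *FLACC1*, a coding gene on the other strand, so it cannot be assigned to *CASP8* alone. A region in intron 3 had peaks in CHP-902R, LAN-2 and SK-N-AS. SJNB-1, the line without a promoter peak, had the shortest cover of the gene body, 1062 bp, and its nearest peak was 11799 bp from the reference TSS.

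*CASP10*, the gene of the other initiator caspase of this complex (202047595 to 202094151, plus strand), had promoter peaks in LAN-2 and SH-SY5Y alone, 1 line of each group. Both had a peak 1190 to 1642 bp upstream of the reference TSS, and LAN-2 had a second one 303 to 631 bp upstream. In the other 6 lines the nearest peak was 2454 bp (SK-N-AS) to 14991 bp (CLB-GA) away. The *CASP10* TSS is about as poor in CpG as that of *CASP8* (15 CpG in 1001 bp). All 8 lines had gene body peaks, and no region of the gene had peaks in more than 3 lines. The covered length of the gene body was 1143.25 ± 384.5 bp in the MNA lines and 1018.25 ± 859.6 bp in the single copy lines (SD, n = 4 each; two-sided exact permutation test, p = 0.771).

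*CFLAR*, whose product c-FLIP holds caspase-8 activation back, was the gene with the most promoter peaks, 18 in all (201980877 to 202041410, plus strand, with 24 annotated TSS). At its reference TSS, CHP-902R, IMR-32, SH-SY5Y and SK-N-AS had a peak, 2 lines of each group. The peak of IMR-32 ran from 876 bp upstream to 737 bp downstream and that of SH-SY5Y from 924 bp upstream to 138 bp downstream, while those of CHP-902R and SK-N-AS ended 137 and 150 bp upstream. A second region, 1601 to 2989 bp downstream in intron 1 and over exons of other transcripts, had peaks in CHP-902R, LAN-2, N206, CLB-GA and SH-SY5Y. The peak of CLB-GA there scored above 97.7% of the peaks of its list. Another region, in intron 4, was merged from peaks of every line but SK-N-AS, with no base shared by all of them. A region in exon 10, the last exon, had peaks in the same lines, and these shared 364 bp. CHP-902R and SH-SY5Y carried peaks in all 4 of these regions, and SK-N-AS in the first alone. SJNB-1 had no peak within 21217 bp of the reference TSS, and its promoter windows were covered over 2 bp only, at an alternative TSS, so that this line no longer counts when the midpoint of a peak has to lie in the window.

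*APAF1*, the scaffold of the apoptosome, is the gene of the list that acts on the mitochondrial branch (chromosome 12, 99039068 to 99129211, plus strand). Its reference TSS is the richest in CpG among the 10 genes (101 CpG in 1001 bp, a density above that of 82.0% of coding promoters), and no line had a peak within 1985 bp of it. The 7 lines with a promoter peak had it at alternative TSS. N206, CLB-GA and SJNB-1 had one in intron 1, 1985 to 2718 bp downstream, near a TSS annotated there. CHP-902R, IMR-32, LAN-2, CLB-GA, SH-SY5Y and SJNB-1 had one in the last exon, exon 27, 87726 to 88293 bp downstream, 65 to 219 bp from the TSS of a short transcript. CHP-902R, IMR-32, LAN-2 and SH-SY5Y had no other promoter peak of the gene. Part of both regions is repeated elsewhere, and more so the part that their peaks share. In the part shared by all peaks of a region, 35.6% (exon 27) and 46.2% (intron 1) of the 45 bp windows occur once in GRCh37. Over the whole regions the shares are 73.1% and 83.6%. Within the gene, 2 neighbouring regions of intron 13 were covered in most lines: one in LAN-2, N206 and all 4 single copy lines, the other in every line but SJNB-1. The 7 lines with an *APAF1* promoter peak were all 4 MNA lines and 3 single copy lines (exact p = 1). With the reference TSS alone no line had a promoter peak.

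**Figure D4:**
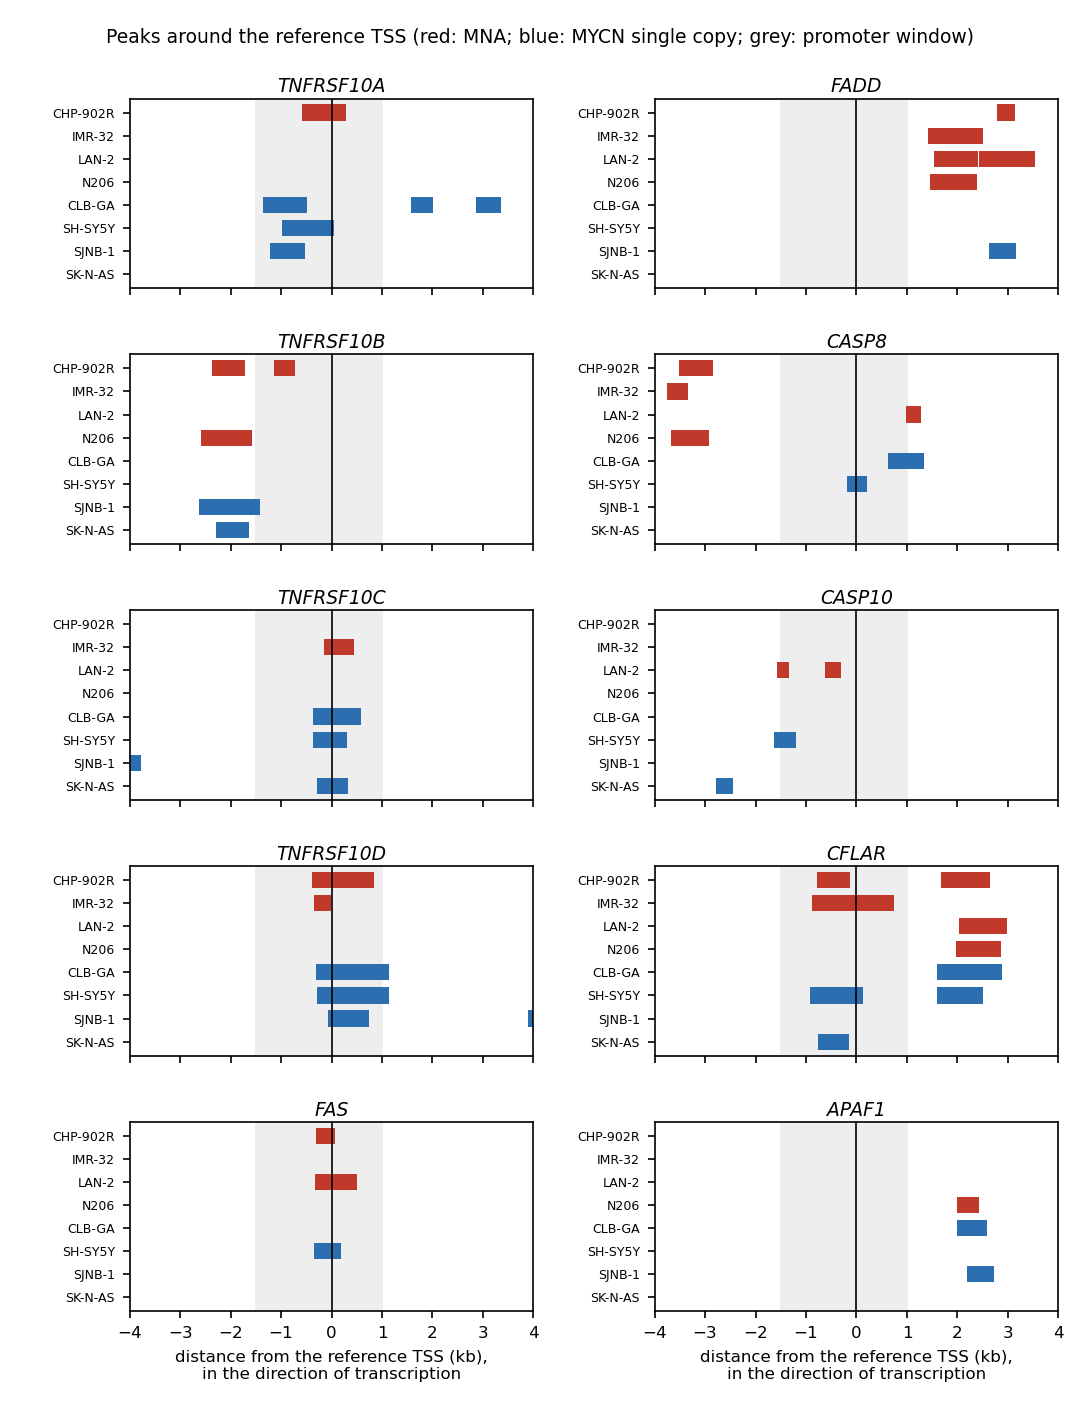
All peaks within 4 kb of the reference TSS of each gene, by line (rows; red for MNA, blue for *MYCN* single copy), with distance in the direction of transcription on the horizontal axis and the promoter window in grey. Peaks cross the TSS (0 kb) of *TNFRSF10C*, *TNFRSF10D* and *FAS*, those of *FADD* start 1421 bp or more downstream, and the *CASP8* peaks of CHP-902R, IMR-32 and N206 lie 2852 to 3751 bp upstream.

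The question whether *MYCN* status goes with methylation was then put to the 10 genes by presence and by length. In none of the 9 genes with a promoter peak was the peak present in all lines of 1 group and no line of the other, a pattern shown by 127 of 35865 genes tested (0.354%). By the length covered in promoter windows, 0 of 9 genes had p under 0.05 in the two-sided exact permutation test, against 436 of 35865 genes (1.22%). The smallest p was that of *TNFRSF10A*, where the MNA lines had 219.5 ± 439 bp and the single copy lines 730.25 ± 311 bp (SD, n = 4 each; difference of -510.75 bp, exact permutation p = 0.0857). The only MNA line with any covered length, CHP-902R, had 878 bp and lay within the 316 to 1035 bp of the single copy lines. By gene body length 0 of 10 genes had p under 0.05, against 760 of 37205 genes (2.04%), and by gene body presence 0 of 10, against 77 (0.207%). With 4 lines against 4 the exact tests cannot go below p = 0.0286, and after Benjamini-Hochberg adjustment over all genes no gene of the annotation passed 0.05 in any of the 4 tests. At these background shares, 0 of 9 or of 10 is not a result about these genes.

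By direction, the 4 TRAIL receptor genes had promoter peaks in more single copy than MNA lines (1 against 4, 1 against 3, 1 against 3 and 2 against 3 lines), *FAS*, *CASP8* and *APAF1* had them in 1 more MNA line, and *CASP10* and *CFLAR* in equal numbers. These directions moved with the processing: *TNFRSF10A* turned with scores of at least 100, *TNFRSF10B* was equal and *CASP8* turned with the reference TSS alone. None of these differences passed the exact test, and the neighbouring TRAIL receptor genes are not independent of each other. Over all genes with a promoter peak, the median difference was 0, as it was over the 9 genes.

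**Figure D5:**
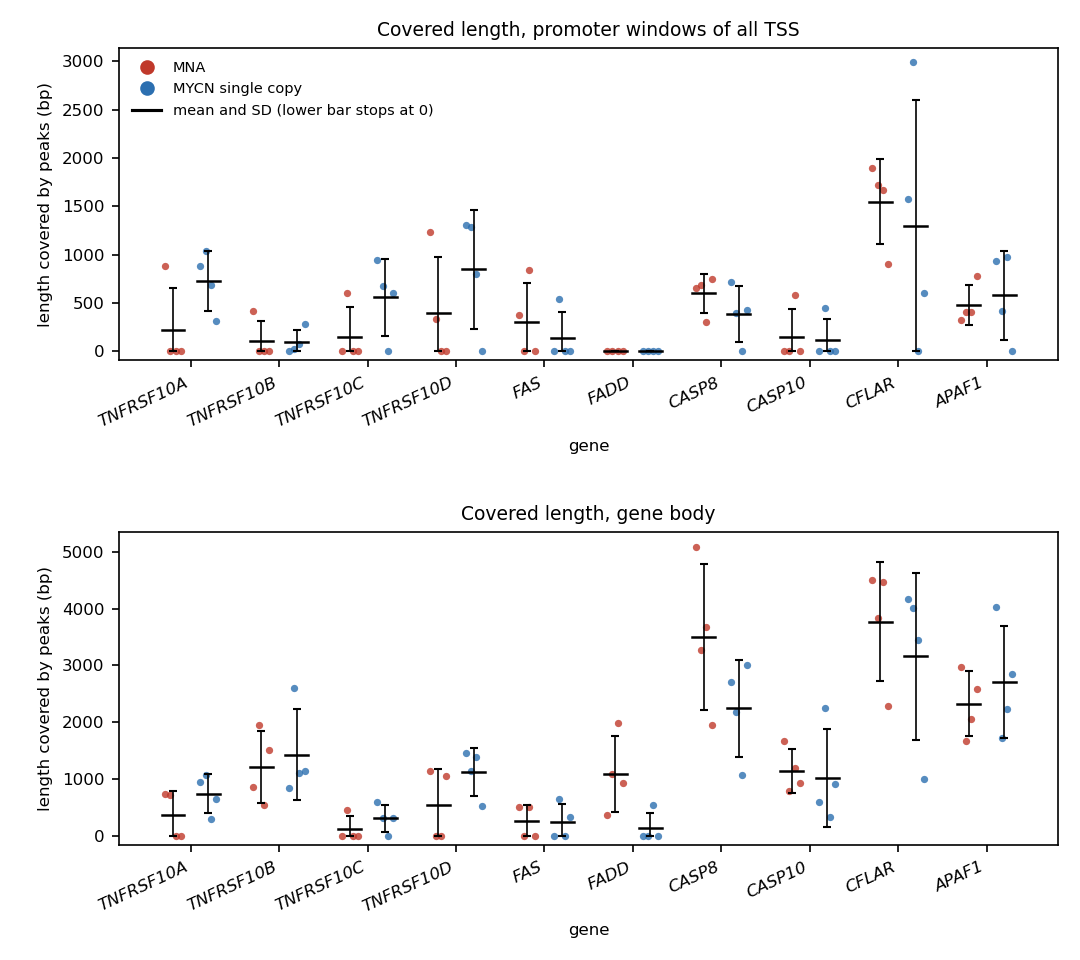
Length in bp covered by peaks for each gene, in the promoter windows of all TSS (top) and in the gene body (bottom), 1 point a line (red for MNA, blue for *MYCN* single copy), with the mean and SD of each group (n = 4); the lower bar stops at 0. The *FADD* gene body has 366 to 1978 bp in the MNA lines and 0 to 533 bp in the single copy lines, and the groups overlap for every gene.

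Of 54 other genes of the pathway, 43 had a promoter peak in at least 1 line, where 73.9% of coding genes had one. By group, 20 had one in more MNA than single copy lines and 10 in more single copy lines. Over all coding genes the mean share with a promoter peak was also higher in the MNA lines, 38.6% against 35.2%. None of the 54 genes had p under 0.05 in Fisher's exact test, against 0.354% of 35865 genes tested. The median of the 54 genes was 2.5 lines. Among the adaptors and kinases all 8 had a promoter peak in some line, with a median of 5 lines. *TRAF2*, an adaptor of TNF receptor signalling, had one in all 8 lines, and *RIPK1*, the kinase of the same complex, in 7 lines. For both, however, the peaks lay at alternative TSS, since the window of the reference TSS had a peak in 1 line for *TRAF2* and in 0 for *RIPK1*. *DEDD2*, a nuclear protein with a death effector domain, had a peak at its reference TSS in 7 lines, all but CHP-902R. *FAF1*, which binds FAS, had promoter peaks in 6 lines, 1 of them at the reference TSS.

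Of the 6 ligands, 3 had a promoter peak in no line, among them *TNFSF10*, the gene of TRAIL, and *TNFSF12* (TWEAK) had one in 5 lines. *FASLG* had one in IMR-32 and CLB-GA. Of the 7 other receptors, *NGFR*, the neurotrophin receptor with a death domain, had a peak at its reference TSS in 7 lines, all but CHP-902R, and *TNFRSF12A*, the receptor of TWEAK, had promoter peaks in 5 lines. The other caspases had a median of 1 line. *CASP2* had promoter peaks in 7 lines, of which 4 in the window of the reference TSS. All 14 genes of the BCL2 family had a promoter peak in some line, with a median of 3.5. The survival gene *BCL2* had one in 7 lines and *BOK* in 6 (4 MNA and 2 single copy lines). *BID*, the substrate through which caspase-8 reaches the mitochondria, had one in 5 lines. *BCL2L1*, *MCL1* and *BBC3* (PUMA) also had them in 5 lines. With the window of the reference TSS alone, *BCL2* and *BCL2L1* had a peak in 5 lines and *BBC3* in 4. *BOK* (1 MNA and 1 single copy line) and *MCL1* then had one in 2 lines, and *BID* in 1. Of the 8 genes of the apoptosome and the inhibitors of apoptosis, 6 had a promoter peak in some line and none in more than 4 lines. The 2 substrate genes, *DFFA* and *DFFB*, had one in 1 and in 4 lines.

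The coding genes that the annotation places among the members were read in the same way. *FLACC1*, opposite to *CASP8*, had promoter peaks in 4 MNA and 2 single copy lines. At the other cluster, *RHOBTB2*, which touches the end of *TNFRSF10B*, had them in 4 MNA lines and 3 single copy lines. A further coding gene there, ENSG00000284956, overlaps *TNFRSF10C* and had them in 1 MNA line and 2 single copy lines. The coding gene *ANKS1B*, whose promoter peaks are not given here, overlaps *APAF1*. Peaks in that overlap cannot be assigned to *APAF1* alone.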

How the data were processed

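MBD-seq libraries of 8 NB cell lines, 1 library each, had been mapped by the authors with Bowtie 0.12.7 to GRCh37 and peaks called with MACS in each line separately. For each peak the deposited lists hold start, end and a score (lowest score 50), read here as the one MACS derives from the p-value, which the sources used here do not state. There are 70816 to 112412 peaks a list and no read counts. Options of the peak calling and an input control are not given in the sources used here.

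From these lists, presence and covered length of peaks were computed per gene of GENCODE release 44 in GRCh37 coordinates in Python 3.11.15 (numpy 2.4.6, scipy 1.17.1) and drawn with matplotlib 3.10.9. Promoter windows ran from 1500 bp upstream to 1000 bp downstream of each TSS, and an overlap of 1 bp counted. The reference transcript was the Ensembl canonical one or, for *FAS*, the APPRIS principal one. Lines were grouped by the *MYCN* status in their labels. Presence was compared with two-sided Fisher's exact tests and covered length with two-sided exact permutation tests over all 70 splits of the lines, each run on all genes with a peak in at least 1 line, with Benjamini-Hochberg adjustment over these genes. Both tests were tested on simulated data. CpG content, sequences and the uniqueness of 45 bp windows were taken from the GRCh37 sequence with numba 0.67.0. Scores were ranked within a list, but the filter by score used the same cutoff in every list. This cutoff left unequal shares of the lists. Near it, a score of 101.08 was above 77.8% of the peaks of LAN-2, and one of 101.39 above 86.7% of those of N206.

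Nothing shows that the lines were sequenced more than once, so the tests set group differences against differences between lines. The latter include any difference between libraries, which cannot be told apart from them. All 10 members are named. Of the 54 other pathway genes those with a promoter peak in at least 5 lines, or with a difference of at least 3 lines between the groups, are named, and *TNFSF10*, *FASLG*, *DFFA* and *DFFB* were added after their values were seen. Some results that this rule takes in are not reported here. Of the genes between the members, the coding ones are named. The members and the gene lists were chosen with earlier results of these data known. As alternatives, peaks scoring under 100 were dropped, all lists were shortened to their top 70816 peaks, the midpoint of a peak replaced its overlap, the reference TSS alone or narrower windows were used, and lines were left out one by one. The window of 500 bp on each side of the reference TSS was added after seeing the data.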

Additional observations from a re-analysis of the deposited data

How the results depend on the processing

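Across the alternatives, 273 differences of the 10 genes kept their direction, 37 turned, 21 fell to 0, 13 moved away from 0 and 17 were 0 in both fits. None of them was past p under 0.05 in all lines, and 2 passed it only without CHP-902R, *TNFRSF10A* by presence (-100 percentage points) and *FADD* by gene body length (1198 bp), each with p = 0.0286 in the exact test, as 295 and 1137 genes did by these measures without this line. The cause of these changes was not tested, beyond the fewer peaks, windows or lines that an alternative leaves. No paired analysis was possible because the labels pair no MNA line with a single copy line.

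The count of genes with p under 0.05 by promoter presence, 127 in all lines, was 27 with scores of at least 100, 76 with windows of 500 bp on each side, 43 with that window at the reference TSS alone, and 237 to 322 with a line left out. By promoter length, 436 became 67, 238 and 119 under the same first 3 alternatives, and 242 with the reference TSS and the full window. By gene body length, 760 became 218 with scores of at least 100 and 572 to 1137 with a line left out. The midpoint gives no covered length, so it was used for presence alone. The mean number of the 10 genes with a promoter peak fell from 5 to 2 in the MNA lines and from 6.25 to 2 in the single copy lines with scores of at least 100, to 2.75 and 4 with the reference TSS alone, and to 2.25 and 3 with 500 bp on each side of it.

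Differences are given as MNA minus single copy. With scores of at least 100, *TNFRSF10A* turned to 25 percentage points, and its promoter length to 219.5 bp and gene body length to 73.75 bp. *TNFRSF10B* turned to -20 bp by promoter and 227.5 bp by gene body, and *APAF1* to 20.5 bp by promoter. *CASP8* turned to -25 percentage points with the reference TSS alone in either window, and its promoter length to -186.75 bp (full window), -65.75 bp (500 bp around all TSS) and -99.5 bp (500 bp around the reference TSS), where *TNFRSF10A* had 56.25 bp. With equal numbers of peaks, promoter length turned to -26.75 bp for *TNFRSF10B* and -49.5 bp for *CASP10*, whose gene body length turned to -45.75 bp. With a line left out, promoter lengths ran from -97.5 to 68.8 bp for *TNFRSF10B*, -8.67 to 305.75 bp for *FAS*, -113.25 to 146 bp for *CASP10*, -174 to 821 bp for *CFLAR* and -292.75 to 31.25 bp for *APAF1*. Gene body lengths ran from -460.9 to 175.9 bp for *TNFRSF10B*, -75.9 to 146.5 bp for *FAS*, 661.1 to 1198 bp for *FADD*, 727.9 to 1772 bp for *CASP8*, -107.4 to 537.9 bp for *CASP10*, -102.9 to 1114 bp for *CFLAR* and -714.7 to 53.7 bp for *APAF1*. The filter by score kept unequal shares of the lists, and its part in the turns under that setting was not tested. Depth, which the lists do not hold, limits what a missing peak can show.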

Other observations

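The peaks of the 10 genes formed 109 merged regions, of which 59 had a peak in 1 line only and 16 in at least 4 lines. Of the 222 peaks, 31 overlapped a coding exon. When peaks scoring under 100 were left out, *CFLAR* kept a promoter peak in 6 lines (4 MNA and 2 single copy), *TNFRSF10D* in 3, *FAS* and *APAF1* in 2 each, and *TNFRSF10A*, *TNFRSF10B* and *TNFRSF10C* in 1 each, while *CASP8* and *CASP10* had none left.

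At the *CFLAR*, *CASP10* and *CASP8* locus, CHP-902R and LAN-2 had 20 peaks each, SH-SY5Y 18, IMR-32 16, CLB-GA 15, SK-N-AS 12, SJNB-1 9 and N206 8. Within 1 Mb of it the lines had 76 (SJNB-1) to 123 peaks (LAN-2), and N206, with the fewest in the locus, had 101.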
